A study of Mus musculus with 2 samples.

Results

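Collagen chain genes code for the polypeptide chains that wind around each other into the collagens of the extracellular matrix. They were taken as the mouse genes whose symbol has the form Col, a type number, the letter a and a chain number, and which have at least 1 transcript typed as protein-coding in the annotation. The rule found 44 genes among the 55536 GENCODE genes of the gene tables, of which 22028 are protein-coding. By chain type these were 11 fibrillar, 6 basement membrane type IV, 6 beaded filament type VI and 9 FACIT genes (fibril-associated collagens with interrupted helices), with 3 of the network types VIII and X, 2 multiplexins, 4 transmembrane chains and 3 others.

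Total RNA, depleted of ribosomal RNA and carrying ERCC spike-ins (synthetic RNAs of known amount), was sequenced from whole adrenal gland. There was 1 group, of female B6CASTF1/J mice (an F1 hybrid of C57BL/6J and CAST/EiJ) at 14 days of age, with no treatment named, and 300 ng of RNA went into each of 2 libraries. They are called replicate 2 and replicate 1 after their labels, and with 1 group the data hold only levels and the difference between these libraries. Library and donor labels are shared while only the tissue label of replicate 2 points to a single female, so the labels do not show whether the libraries came from separate animals, and differences between them may be technical in part.

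The helical stretch of a collagen chain repeats glycine followed by a pair of other residues, glycine being the only residue small enough to fit at the centre of the helix. Fibrillar chains such as those of types I and III form the cable-like fibrils of capsule and stroma, whereas type IV chains form the sheet-like network of basement membranes around vessels, nerves and epithelia. In the adrenal gland these matrices make up the capsule and line the sinusoids that run between the cords of steroid-producing cells.

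The repeat is visible in the coding sequences of the most abundant chains. Below, 18 codons from the GENCODE M21 transcripts are printed for genes whose levels the results turn on, starting where the longest uninterrupted run of the repeat begins, with every GGN codon (glycine) that stands in register in capitals. A further stretch of Col4a1 shows the end of a run, where the codon in register is no longer GGN.
Col1a1 (chromosome 11): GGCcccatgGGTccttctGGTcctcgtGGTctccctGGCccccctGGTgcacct
Col3a1 (chromosome 1): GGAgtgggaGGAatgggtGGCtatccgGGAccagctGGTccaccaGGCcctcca
Col4a1 (chromosome 8): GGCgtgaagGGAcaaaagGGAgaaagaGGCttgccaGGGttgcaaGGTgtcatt
Col4a1, end of its longest run: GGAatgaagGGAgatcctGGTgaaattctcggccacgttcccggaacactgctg
Col18a1 (chromosome 10): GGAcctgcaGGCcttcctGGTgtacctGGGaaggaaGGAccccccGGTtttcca

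All 44 genes had a run of at least 20 such triplets in their longest annotated coding sequence, against 20 of 21703 other protein-coding genes (0.0922%). The rule for membership read only names and transcript types, but collagen symbols name genes for this kind of protein, so the contrast is descriptive. The length of the uninterrupted run differed by chain type. It was 337 to 344 triplets in 9 fibrillar genes, with 344 in Col3a1 and 338 in Col1a1, and 217 and 216 in the fibrillar genes Col27a1 and Col24a1. The type IV genes had 22 to 27 separate runs of at least 5 triplets, and their longest runs ranged between 39 triplets in Col4a3 and 66 in Col4a2. Col18a1 had 16 runs with a longest of 30, and the shortest maximum among the 44 was 23, in Col26a1.

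The libraries stood apart in markers of several tissues, some higher and some lower in replicate 2. Totals were 33844950 expected counts in replicate 2 against 37586172 in replicate 1. All 8 adrenal cortex markers were above 1 TPM, a level per transcript length, in both libraries, with a summed level of 2442 TPM in replicate 2 against 6663 TPM in replicate 1. The 8 hepatocyte markers summed to 18910 TPM in replicate 2 against 325 TPM in replicate 1, and the 8 skeletal muscle markers to 540 TPM in replicate 2 against 24.6 TPM in replicate 1. The 6 T cell markers summed to 1.69 TPM in replicate 2 against 39.2 TPM in replicate 1. The part of these tissues in the collagen differences was not tested, and in bulk tissue fewer cells of a type and less RNA per cell cannot be told apart.

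Collagen RNA was a small share of the transcriptome held by few genes. The 44 genes summed to 819 TPM in replicate 2 against 724 TPM in replicate 1, which was 0.293% and 0.249% of protein-coding TPM without mitochondrial genes (mean 0.271% ± 0.0312, SD, n = 2). The 6 genes of highest mean level, Col3a1, Col4a1, Col1a1, Col4a2, Col1a2 and Col6a1, held 71.9% of collagen TPM in replicate 2 and 76.0% in replicate 1. At 1 TPM or more were 27 genes in replicate 2 and 28 in replicate 1, with 26 in both libraries. These were 61.4% and 63.6% of the collagen genes, beside 55.8% and 56.3% of protein-coding genes. The median collagen gene stood at 1.62 TPM in replicate 2 against 1.66 TPM in replicate 1, beside 1.89 and 2.05 TPM for protein-coding genes. The bulk of collagen RNA thus came from the chains of types I, III, IV and VI.

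**Figure D1:**
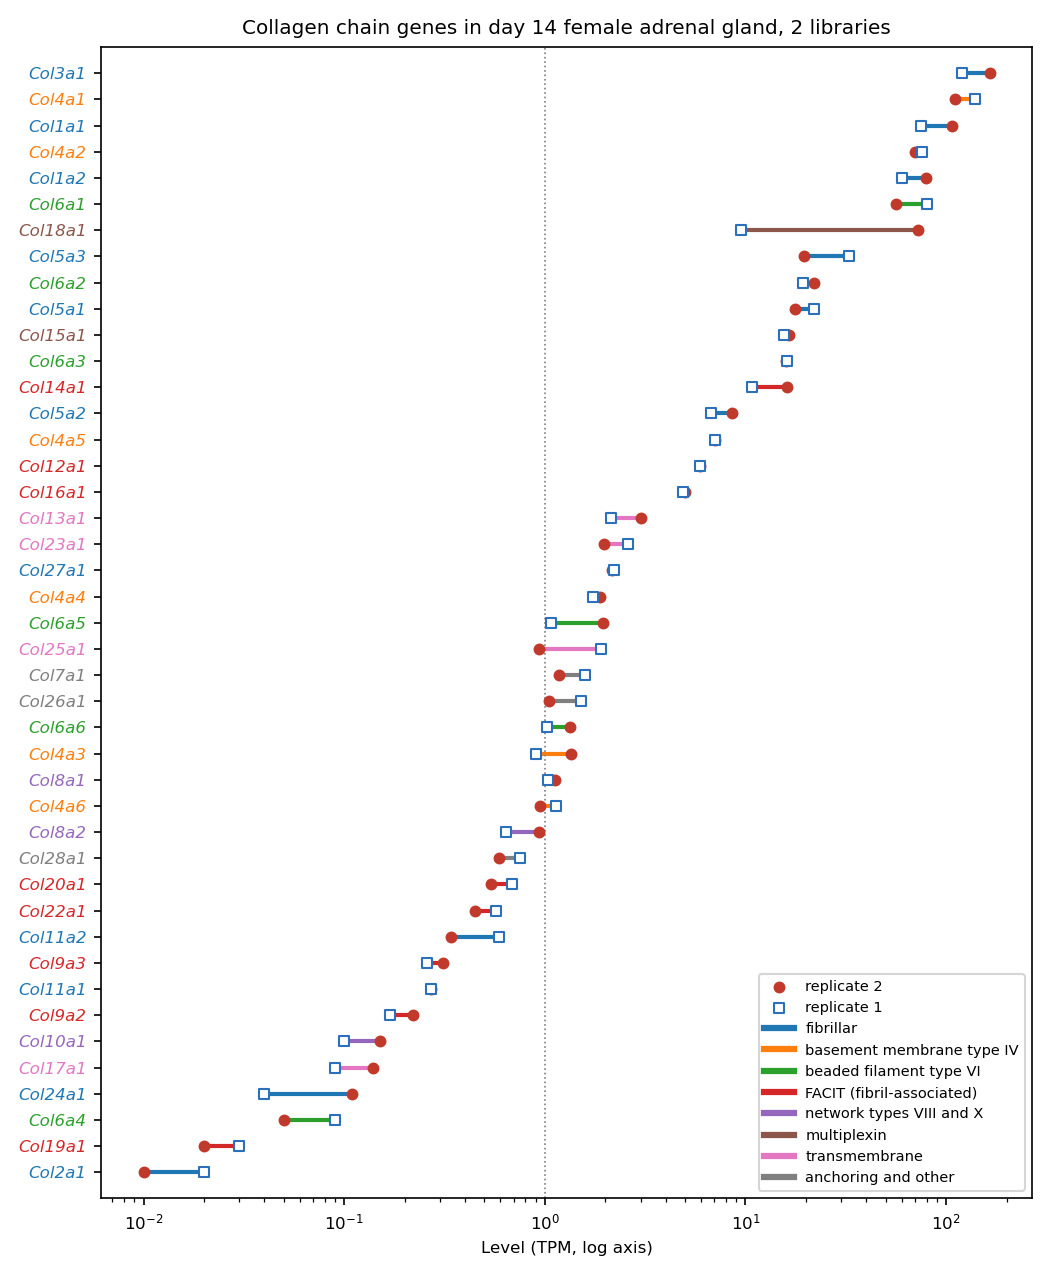
Level of each collagen gene in TPM on a log axis, ordered by mean, in replicate 2 (filled circles) and replicate 1 (open squares), with lines and names coloured by chain type. The 12 genes at 10 TPM or more in both libraries sit at the top together with Col18a1, which has the widest gap (72.8 TPM in replicate 2 against 9.50 TPM in replicate 1), and Col9a1, at 0 counts in both libraries, is not drawn.

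The fibrillar genes held the largest share of collagen TPM, 48.8% in replicate 2 and 44.1% in replicate 1. Col3a1, the only chain of type III and a partner of type I in extensible tissue, stood at 165 TPM in replicate 2 against 120 TPM in replicate 1. Col1a1 and Col1a2, which code for the chains of type I collagen, stood at 107 and 79.4 TPM in replicate 2 against 75.0 and 60.3 TPM in replicate 1. All 3 were higher in replicate 2 on the TPM scale. The type V genes, whose product sits inside type I fibrils and limits their diameter, lay lower and did not share a direction in TPM. Col5a3 had 19.7 TPM in replicate 2 against 32.7 TPM in replicate 1, Col5a1 had 17.6 TPM in replicate 2 against 21.9 TPM in replicate 1, and Col5a2 had 8.54 TPM in replicate 2 against 6.71 TPM in replicate 1. Col27a1 stood at 2.15 TPM in replicate 2 against 2.22 TPM in replicate 1. The genes of cartilage fibrils were near the floor of detection. Col2a1, the main cartilage chain, had 1 count in replicate 2 and 3 counts in replicate 1, and Col11a1 and Col11a2 stayed under 1 TPM in both.

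Among the basement membrane genes, Col4a1 and Col4a2, whose chains form the type IV network found in nearly all basement membranes, stood far above the other 4. Col4a1 had 111 TPM in replicate 2 against 140 TPM in replicate 1, and Col4a2 had 70.1 TPM in replicate 2 against 75.7 TPM in replicate 1. Col4a5, a chain best known from kidney glomeruli, was at 7.04 TPM in both libraries. Its glomerular partners Col4a3 and Col4a4 were at 1.35 and 1.89 TPM in replicate 2 against 0.90 and 1.73 TPM in replicate 1. Col4a6 was at 0.95 TPM in replicate 2 against 1.14 TPM in replicate 1. The 5 kidney markers summed to 0.10 TPM in replicate 2 against 0.36 TPM in replicate 1, and none of them reached the mean count of 20 used for differences. The type IV genes together held 23.5% of collagen TPM in replicate 2 and 31.2% in replicate 1.

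Type VI collagen forms beaded microfibrils next to cells and basement membranes from the chains of Col6a1 and Col6a2 and a longer chain. Col6a1 had 56.1 TPM in replicate 2 against 80.3 TPM in replicate 1, while Col6a2 had 22.1 TPM in replicate 2 against 19.3 TPM in replicate 1. Col6a3, the usual longer chain, was at 15.9 TPM in replicate 2 against 16.04 TPM in replicate 1. The related longer chains were low: Col6a5 had 1.95 TPM in replicate 2 against 1.07 TPM in replicate 1, Col6a6 had 1.34 TPM in replicate 2 against 1.02 TPM in replicate 1, and Col6a4 had 13 counts in each library. Col6a1 stood above Col6a2 and Col6a3 in both libraries, and these 3 stood above the alternative longer chains.

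The remaining types were led by the multiplexins, basement membrane collagens with interrupted helices and a carboxy-terminal fragment that can be released. Col15a1 was at 16.5 TPM in replicate 2 against 15.5 TPM in replicate 1, and Col18a1, the source of endostatin, at 72.8 TPM in replicate 2 against 9.50 TPM in replicate 1. Of the FACIT genes, Col14a1 had 16.2 TPM in replicate 2 against 10.8 TPM in replicate 1, Col12a1 had 5.91 TPM in replicate 2 against 5.90 TPM in replicate 1, and Col16a1 had 4.97 TPM in replicate 2 against 4.88 TPM in replicate 1. These chains attach to fibril surfaces, and Col12a1 and Col16a1 were at nearly the same level in both libraries. Of the transmembrane chains, Col13a1, found at neuromuscular and other adhesion sites, had 3.00 TPM in replicate 2 against 2.14 TPM in replicate 1. Col23a1 had 1.98 TPM in replicate 2 against 2.61 TPM in replicate 1, and Col25a1, a chain of neurons and developing muscle, had 0.94 TPM in replicate 2 against 1.90 TPM in replicate 1. Col7a1, the anchoring fibril chain of skin, had 1.18 TPM in replicate 2 against 1.59 TPM in replicate 1, Col26a1 had 1.05 TPM in replicate 2 against 1.51 TPM in replicate 1, and the network chain Col8a1 had 1.13 TPM in replicate 2 against 1.04 TPM in replicate 1. The other 15 genes stayed under 1 TPM in both libraries, the highest value being 0.93 TPM, for Col8a2 in replicate 2. They were Col8a2, Col28a1, Col20a1, Col22a1, Col11a2, Col9a3, Col11a1, Col9a2, Col10a1, Col17a1, Col24a1, Col6a4, Col19a1, Col2a1 and Col9a1. Col9a1 had 0 counts in both libraries, and such a zero leaves room for up to 3 counts, or 8.89e-06% of the counts in replicate 2 and 8.01e-06% in replicate 1.

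The libraries were compared gene by gene as log2 of replicate 2 over replicate 1, on rounded expected counts scaled with edgeR's TMM factors and a prior count of 0.5, where the mean count reached 20. With 1 library on each side there is no test and no p-value. Intervals are 95% Clopper-Pearson intervals that cover counting error only, and a gene was counted as different from 1.5-fold upwards. Of the 44 genes, 35 reached the count minimum; the 9 that did not had 0 to 26 counts in a library. In replicate 2, 14 of the 35 (40.0%) were at least 1.5-fold higher, against 14.4% of all 16170 genes measured. Only Col25a1 was at least 1.5-fold lower, 2.86% of the 35 against 8.82% of all genes. At least 2-fold higher were 3 collagen genes, Col18a1, Col6a5 and Col14a1, which is 8.57% against 8.34% of all genes, and 0 were 2-fold lower against 2.59%. The median difference of collagen genes was 0.44 on the log2 scale, against -0.003 for all genes.

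How the libraries are scaled moves all genes together, so directions of small size are relative. TMM sets the median gene near 0, while scaling by total counts puts the median of all genes at -0.34 and by spike-ins at -0.28. As a ratio of TPM with a pseudocount of 0.1 the median of all genes was -0.41 and that of the collagen genes 0, so a gene at equal TPM in both libraries is above 0 by TMM. On that ratio 2 of the 35 were at least 1.5-fold higher (5.71%, against 8.32% of all genes) and 3 lower (8.57% against 31.4%). With a pseudocount of 1 these were 1 higher (2.86% against 6.7%) and 1 lower (2.86% against 18.2%), so the larger share of higher collagen genes was not seen on the TPM scale. The collagen median still lay above that of all genes there (0 against -0.41 with a pseudocount of 0.1), and fewer collagen genes were lower. By total counts 6 collagen genes were at least 1.5-fold higher (17.1%, against 8.96% of all genes) and 3 lower (8.57% against 24.9%). By spike-ins 9 were higher (25.7% against 9.67%) and 2 lower (5.71% against 20%). The collagen median was 0.11 and 0.17 under these scalings, which is 0.45 above the median of all genes in each, as it is under TMM. The 6 genes at least 1.5-fold higher under all 3 scalings were Col18a1, Col6a5, Col14a1, Col3a1, Col8a2 and Col1a1. By spike-ins Col16a1, Col13a1 and Col5a2 were higher as well. Col25a1 was at least 1.5-fold lower under all 3 (log2 -0.65 by TMM, -0.99 by total counts and -0.92 by spike-ins).

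**Figure D2:**
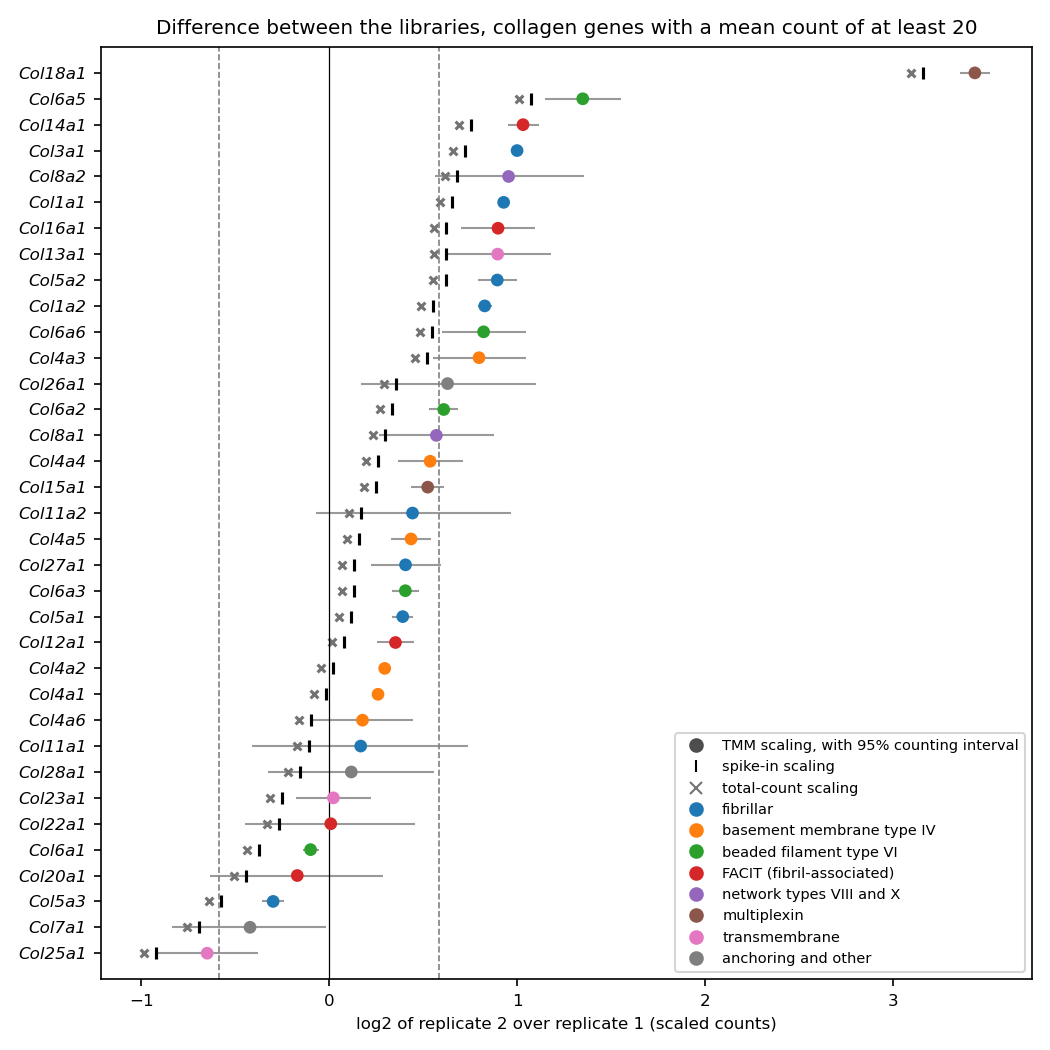
log2 of replicate 2 over replicate 1 for the 35 collagen genes whose mean count reached 20, by TMM scaling (circles, with 95% counting intervals), spike-in scaling (bars) and total-count scaling (crosses). Dashed lines mark 1.5-fold; Col18a1 stands alone at 3.43 by TMM, most genes lie between 0 and 1, and Col25a1 is the lowest at -0.65.

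Among fibrillar genes, the chains of types I and III were higher in replicate 2 by similar amounts. Col3a1 had 26624 counts in replicate 2 against 18715 in replicate 1, which was 2.00-fold after scaling (1.96 to 2.04). Col1a1 had 20322 counts in replicate 2 against 15010 in replicate 1, 1.90-fold (1.86 to 1.94), and Col1a2 was 1.77-fold higher (1.73 to 1.82). Col5a2, which lies tail to tail with Col3a1 on chromosome 1 with 24614 bases between them, was 1.86-fold higher (1.73 to 2.00). The other type V genes differed from it: Col5a1 was 1.31-fold (1.26 to 1.36) and Col5a3 was 0.813-fold (0.781 to 0.846), with 3830 counts in replicate 2 against 6619 in replicate 1. Col1a2 passed 1.5-fold by TMM and not by total counts (log2 0.49) or spike-ins (0.55), and Col5a2 did not by total counts (0.55). The 8 markers of fibroblasts and capsule summed to 123 TPM in each library. Of these, 3 were at least 1.5-fold higher and none lower, with a median of 0.31 by TMM and -0.03 by total counts, where 1 of the 8 was higher, as by spike-ins. Within that list Lum and Dcn, which bind collagen fibrils, were at 0.83 and 0.67 by TMM. They fell short of 1.5-fold by total counts (0.50 and 0.33) and by spike-ins (0.56 and 0.39). Rspo3 was the marker higher under all 3 scalings (1.03 by TMM, 0.69 by total counts, 0.75 by spike-ins). The other 5, with Pdgfra and Nr2f2 at -0.01, were within 1.5-fold by TMM.

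The type IV pair was close to even between libraries. Col4a1 had 22220 counts in replicate 2 against 26084 in replicate 1, 1.20-fold by TMM (1.18 to 1.22), and Col4a2 was 1.23-fold (1.20 to 1.25). The sign turned under total counts for both (-0.08 and -0.04) and under spike-ins for Col4a1 (-0.02). Only Col4a3 of the 6 type IV genes passed 1.5-fold by TMM, at 1.74-fold (1.46 to 2.07) from 302 counts in replicate 2 against 244 in replicate 1. It fell short of 1.5-fold by total counts (log2 0.46) and by spike-ins (0.52). The endothelial markers, from cells that sit on type IV collagen, summed to 144 TPM in replicate 2 against 188 TPM in replicate 1, and none of the 6 was 1.5-fold apart by TMM. By total counts and by spike-ins Plvap (-0.66 and -0.60) and Emcn (-0.76 and -0.69) were lower. The TPM of Col1a1, Col1a2 and Col3a1 together was 1.93 times that of Col4a1 and Col4a2 in replicate 2 and 1.19 times in replicate 1. The ratio of these 3 genes to these 2 differed by 0.71 on the log2 scale between the libraries, whatever the scaling, and the ratio of all fibrillar to all type IV genes by 0.55.

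Within type VI the chains went different ways. Col6a1 was 0.933-fold (0.906 to 0.961), with 7370 counts in replicate 2 against 11094 in replicate 1, while Col6a2 was 1.53-fold (1.45 to 1.61), with 2829 counts in replicate 2 against 2606 in replicate 1. Col6a5 was 2.55-fold higher (2.22 to 2.93), from 577 counts in replicate 2 against 318 in replicate 1, and Col6a6 was 1.77-fold (1.51 to 2.07). Col6a5 and Col6a6 lie on the same strand of chromosome 9 with 27917 bases between them, and their counts, like those of Col3a1, were not whole numbers, so reads shared with other transcripts were split among genes. Col14a1, the FACIT gene, was 2.04-fold higher (1.93 to 2.16) and Col16a1 1.86-fold (1.63 to 2.14), against 1.28-fold for Col12a1 (1.19 to 1.37). In TPM Col16a1 was nearly level (log2 0.03 as a ratio with a pseudocount of 0.1), and its effective length in the gene table was 3046 bases in replicate 2 and 2225 bases in replicate 1. Of the low genes, Col13a1 was 1.86-fold higher (1.53 to 2.26), Col8a2 1.94-fold (1.48 to 2.56, from 130 counts in replicate 2 against 94 in replicate 1) and Col26a1 1.55-fold (1.13 to 2.14), whereas Col25a1 was 0.637-fold (0.525 to 0.770), with 160 counts in replicate 2 against 353 in replicate 1. Col26a1 had 85 counts in replicate 2 against 77 in replicate 1, and its TPM pointed the other way. Col6a2, Col6a6 and Col26a1 fell short of 1.5-fold by total counts (log2 0.27, 0.48 and 0.29) and by spike-ins (0.33, 0.55 and 0.36). Col16a1 and Col13a1 fell short by total counts only (0.56 for each).

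Col18a1 had the largest difference of all collagen genes. It had 11634 counts in replicate 2 against 1511 in replicate 1, 10.8-fold by TMM (10.3 to 11.4), and 3.10 and 3.16 on the log2 scale by total counts and spike-ins. The gene lies on the minus strand of chromosome 10 (mm10, 77052178 to 77166548), and its long transcripts begin at an upstream start or at an internal one downstream of it, which give proteins with different amino-terminal parts. The upstream start is that of Col18a1-202 (77166548), and the internal start is that of Col18a1-201 (77113946) and Col18a1-203 (77113705). The promoter windows of both starts, 250 bases before to 50 after the RefSeq start, are printed in the direction of transcription because the 2 starts differed in the data. The internal window is set on 77113705, so the start of Col18a1-201 lies near its 5′ edge. Capitals mark matches to CCAAT and to the GC box GGGCGG on either strand (TATAAA was searched too). Sequences are RefSeq windows on GRCm38.p6.
Col18a1 upstream start, chr10:77166481-77166780, minus strand: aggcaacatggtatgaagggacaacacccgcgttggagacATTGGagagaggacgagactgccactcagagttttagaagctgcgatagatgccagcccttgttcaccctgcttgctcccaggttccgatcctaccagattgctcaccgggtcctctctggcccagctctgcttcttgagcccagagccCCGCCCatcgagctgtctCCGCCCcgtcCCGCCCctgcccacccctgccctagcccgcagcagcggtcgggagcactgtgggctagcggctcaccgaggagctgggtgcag
Col18a1 internal start, chr10:77113656-77113955, minus strand: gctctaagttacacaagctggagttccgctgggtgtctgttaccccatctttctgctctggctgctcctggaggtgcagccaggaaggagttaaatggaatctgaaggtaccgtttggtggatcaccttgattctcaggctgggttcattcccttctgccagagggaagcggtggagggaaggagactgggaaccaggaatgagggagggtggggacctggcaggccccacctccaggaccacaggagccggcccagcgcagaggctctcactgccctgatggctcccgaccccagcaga

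The upstream window held 3 GC boxes, at -61, -43 and -33 from the start, and 1 CCAAT match at -210, all on the opposite strand. The internal window held no match to any of the 3 motifs. Of 32851 RefSeq promoter windows of this length, 35.7% held the GC box, 37.4% CCAAT and 13.6% TATAAA, and of the 38 windows of collagen genes, which cover 35 of the 44, 23 held the GC box, 13 CCAAT and 5 TATAAA.

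Both starts of Col18a1 gave more RNA in replicate 2, and the internal one by far the more. Transcripts of the internal start had 6886 counts in replicate 2 against 265 in replicate 1, 36.4-fold (32.3 to 41.4), at 43.6 TPM in replicate 2 against 1.52 TPM in replicate 1. The upstream transcript had 4745 counts in replicate 2 against 1229 in replicate 1, 5.42-fold (5.09 to 5.78), at 29.0 TPM in replicate 2 against 7.15 TPM in replicate 1. The internal start thus made up 60.0% of the gene's TPM in replicate 2 and 16% in replicate 1. The ratio of internal to upstream counts was 1.45 in replicate 2 and 0.216 in replicate 1. In the second transcript table, which was made from reads and an index, the folds were 32.4 (29.3 to 36.1) and 5.36 (5.04 to 5.72). Short inner transcripts took 26.6% of the gene's TPM in replicate 2 and 36.9% in replicate 1 in that table, and 0.206% and 8.74% in the first. Slc19a1 overlaps Col18a1 on the opposite strand by 8825 bases and was at 5.39 TPM in replicate 2 against 7.29 TPM in replicate 1.

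**Figure D3:**
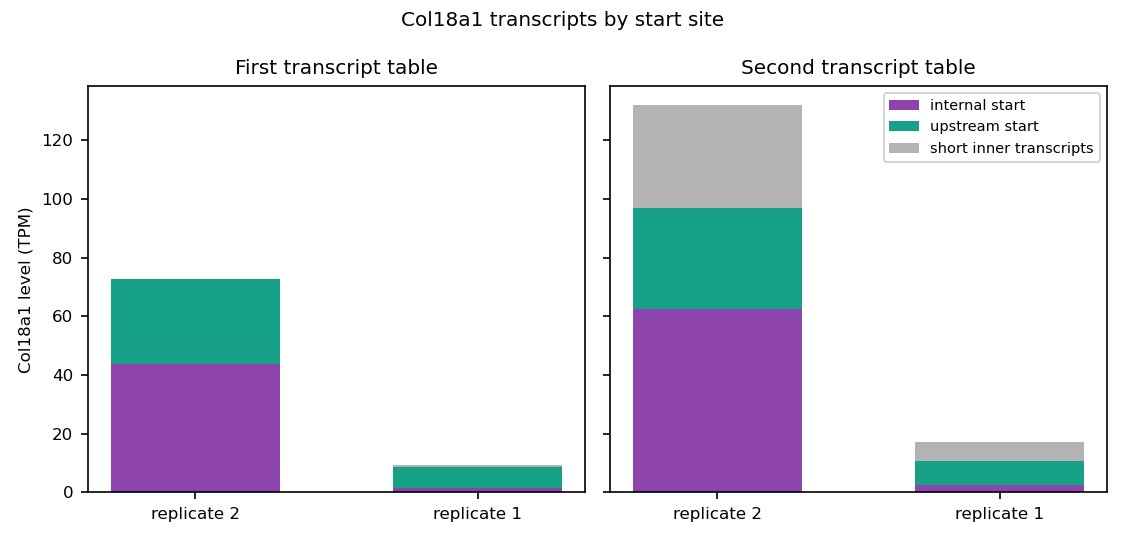
Col18a1 level in TPM, stacked by the start site of its transcripts, in replicate 2 (left) and replicate 1 (right) of each transcript table. The internal start (purple) is 43.6 TPM in replicate 2 against 1.52 TPM in replicate 1 in the first table, and in both tables the internal part exceeds the upstream part (green) in replicate 2 only.

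All 8 hepatocyte markers were also higher in replicate 2, with a median of 6.29 on the log2 scale and a lowest member of 6.08. Of the 5 genes listed for hepatic stellate cells, the fibroblast-like cells of liver, 3 were at least 1.5-fold higher in replicate 2. Lrat had 226 counts in replicate 2 against 4 in replicate 1, and Reln had 2630 counts in replicate 2 against 335 in replicate 1. Ecm1 and Hand2 of the same list were at -0.11 and -0.16, and the summed level of the list was 83.9 TPM in replicate 2 against 83.6 TPM in replicate 1. The part of these cells in the Col18a1 difference was not tested.

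Ratios between partner chains within a library do not depend on scaling between libraries. The TPM ratio of Col1a1 to Col1a2, whose chains join in type I collagen with more of the Col1a1 product, was 1.34 in replicate 2 and 1.24 in replicate 1 (mean log2 0.37 ± 0.08, SD, n = 2). The ratio of Col3a1 to Col1a1 was 1.55 in replicate 2 and 1.60 in replicate 1. These ratios differed little between the libraries. As TPM ratios (pseudocount 0.1) Col3a1, Col1a1 and Col1a2 were 0.46, 0.51 and 0.40 apart on the log2 scale, under 1.5-fold. By TMM-scaled counts they were 1.00, 0.93 and 0.83 apart. The ratio of Col4a1, whose product also outnumbers its partner in the type IV network, to Col4a2 was 1.59 in replicate 2 and 1.84 in replicate 1 (mean log2 0.78 ± 0.15). Col4a1 and Col4a2 lie head to head on chromosome 8, their 5′ ends overlapping by 22 bases, and their count ratio was 1.53 in replicate 2 and 1.57 in replicate 1.

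The other head-to-head type IV pairs were less even. Col4a3 to Col4a4, with 71 bases between their starts on chromosome 1, was 0.714 in replicate 2 and 0.520 in replicate 1. Col4a5 to Col4a6, with 1308 bases between them on the X chromosome, was 7.41 in replicate 2 and 6.18 in replicate 1. The Col6a1 to Col6a2 and Col5a1 to Col5a2 ratios were both lower in replicate 2. Col6a1 to Col6a2 was 2.55 in replicate 2 and 4.16 in replicate 1 (mean log2 1.70 ± 0.50). Col5a1 to Col5a2 was 2.06 in replicate 2 and 3.27 in replicate 1 (mean log2 1.38 ± 0.47). In the second transcript table Col5a1 to Col5a2 was the further apart, at 2.13 in replicate 2 and 3.81 in replicate 1. Col6a3 to Col6a1 was 0.284 in replicate 2 and 0.200 in replicate 1, and Col8a1 to Col8a2 was 1.22 in replicate 2 and 1.63 in replicate 1. Col11a1 to Col11a2, both under 1 TPM, was 0.794 in replicate 2 and 0.458 in replicate 1, and Col9a1 to Col9a2 could not be formed from a gene at 0.

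**Figure D4:**
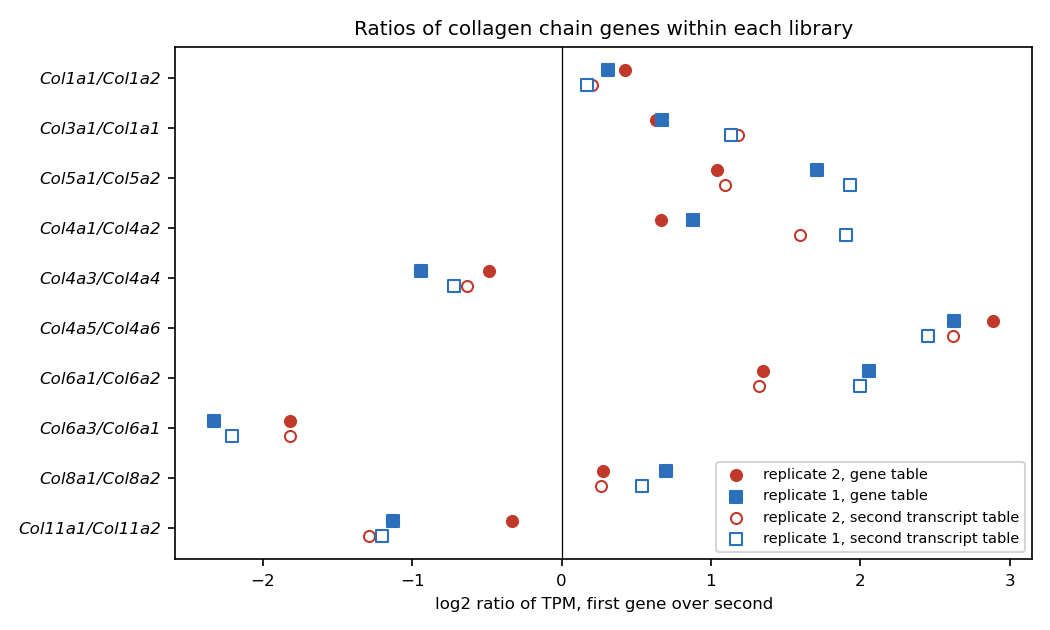
log2 ratio of TPM between 2 chain genes within each library, for replicate 2 (circles) and replicate 1 (squares), from the gene table (filled) and the second transcript table (open). All pairs drawn keep the same sign in both libraries and tables, and Col4a1 over Col4a2 shifts to a mean log2 ratio of 1.75 in the second table, against 0.78 in the gene table.

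The Col4a1 to Col4a2 ratio in the second table was 3.02 in replicate 2 and 3.74 in replicate 1, and the tables differed in the transcripts that Col4a1 RNA was assigned to. The 44 genes have 224 annotated transcripts, 106 of them typed as protein-coding. Non-coding types such as retained introns took 2.87% of collagen TPM in replicate 2 and 3.16% in replicate 1 in the first table, and 9.40% in replicate 2 and 14.9% in replicate 1 in the second. For Col4a1 they took 0.611% in replicate 2 and 0.766% in replicate 1 in the first table and 34.1% in replicate 2 and 36.3% in replicate 1 in the second. Short protein-coding transcripts mattered as well: in the first table the 1170-base Col4a1-206 took 0.66 TPM in replicate 2 against 27.4 TPM in replicate 1, while the full-length Col4a1-201 had 103 TPM in replicate 2 against 111 TPM in replicate 1. The TPM of Col4a1 was lower in replicate 2 while its TMM-scaled count was higher, and part of the TPM gap lay in that short transcript. Col4a2 showed the same pair of signs, at 0.29 by TMM and -0.11 as a TPM ratio with a pseudocount of 0.1. The median of all genes was -0.41 on that ratio and near 0 by TMM, so the opposite signs also go with the scale.

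For some low genes much of the level rested on transcripts not typed as coding. They took 71.5% of the TPM of Col16a1 in replicate 2 and 58.3% in replicate 1, 81.4% of Col7a1 in replicate 2 and 74.8% in replicate 1, and 47.9% of Col25a1 in replicate 2 and 39.7% in replicate 1. In counts the share of Col7a1 was 14.2% in replicate 2 and 14.1% in replicate 1, because short transcripts weigh more per read in TPM. In Col1a1, Col1a2, Col4a2 and Col6a1 such transcripts took under 3% in both libraries and both tables.

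The medians of the lists of collagen enzymes and partners lay nearer to that of all genes than the collagen median did. In the list for prolyl and lysyl hydroxylation and glycosylation, 3 of 15 genes were at least 1.5-fold higher in replicate 2 and 2 lower, with a median of 0.11. P4hb, the disulfide isomerase subunit of prolyl 4-hydroxylase, was at 197 TPM in replicate 2 against 122 TPM in replicate 1 (log2 1.04), and Ppib, a prolyl isomerase of the endoplasmic reticulum, at 109 TPM in replicate 2 against 90.8 TPM in replicate 1 (0.66). Plod2, which hydroxylates lysines of the telopeptides, was at 27.4 TPM in replicate 2 against 61.8 TPM in replicate 1 (-0.73). Colgalt2, a galactosyltransferase, was at 0.85 and P4ha3, a catalytic subunit with 17 counts in replicate 2 against 41 in replicate 1, at -0.77. By total counts Ppib (0.32) and Colgalt2 (0.51) fell short of 1.5-fold and P3h2 (-0.77), a prolyl 3-hydroxylase, was lower, which left 1 higher and 3 lower, as by spike-ins.

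In the folding and secretion list 1 of 11 genes was higher and none lower, with a median of 0.07. Sparc, a collagen-binding matrix protein, was the most abundant gene of all these lists, at 509 TPM in replicate 2 against 788 TPM in replicate 1 (-0.20). The chaperone Hspa5 was at 125 TPM in replicate 2 against 137 TPM in replicate 1 (0.29), and the gene that passed 1.5-fold was Tmem38b, an ion channel of the endoplasmic reticulum (0.72). The tally was 0 higher and 2 lower by total counts (Sec24d -0.81 and Fkbp14 -0.63) and 0 higher and 1 lower by spike-ins. In the propeptide processing list 3 of 7 measured genes were higher and none lower, with a median of 0.04. They were Bmp1 (0.82), which cuts the carboxy-terminal propeptide of fibrillar chains and was at 18.1 TPM in replicate 2 against 13.5 TPM in replicate 1, Adamts2 (0.89), which cuts the amino-terminal one, and Pcolce2 (0.63). Pcolce, the enhancer of Bmp1, was the most abundant at 96.4 TPM in replicate 2 against 154 TPM in replicate 1 (-0.25). By total counts none of the list was higher and 2 were lower, Pcolce (-0.59) and Adamts3 (-0.87), and by spike-ins Adamts2 was higher and Adamts3 lower.

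None of the 6 crosslinking genes was 1.5-fold apart under any of the 3 scalings, with a median of 0.08. Pxdn, which makes the sulfilimine bonds of type IV collagen, was at 23.7 TPM in replicate 2 against 34.9 TPM in replicate 1 (-0.02), and the lysyl oxidase Loxl2 at 10.8 TPM in replicate 2 against 14.5 TPM in replicate 1 (-0.07). Of 11 measured degradation genes 2 were higher and none lower, Mmp2, a gelatinase (0.72), and Fap, a fibroblast protease (0.96). Timp3, an inhibitor of such proteases, and Mmp14, a membrane-bound collagenase, led that list in level, at -0.36 and 0.09. By total counts and by spike-ins Fap was higher and Timp3 lower (-0.70 and -0.64), and Mmp2 was within 1.5-fold. Of 8 measured receptor genes 1 was higher by TMM, Itga11, a receptor subunit for fibrillar collagen (0.68), while by total counts and spike-ins none was higher and Itga2, another such subunit, was lower (-0.92 and -0.86), and the most abundant, Itgb1 and Itga1, were at -0.01 and 0.24. Of the 15 basement membrane partners of type IV 1 was higher and none lower by TMM, Lamb3, a laminin chain at 0.42 TPM in replicate 2 against 0.68 TPM in replicate 1, where the TPM pointed the other way from the counts (1.03). By total counts and spike-ins Lamb3 was higher as well, and Lama3 (-0.79 and -0.72) and Lamc3 (-0.65 and -0.59) were lower. The median of that list was 0.01, beside 0.36 for the 6 type IV genes. Perlecan (Hspg2) was at 40.8 TPM in replicate 2 against 56.4 TPM in replicate 1 (-0.12), and the laminin chain Lamc1 at 35.9 TPM in replicate 2 against 53.5 TPM in replicate 1 (0.01).

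**Figure D5:**
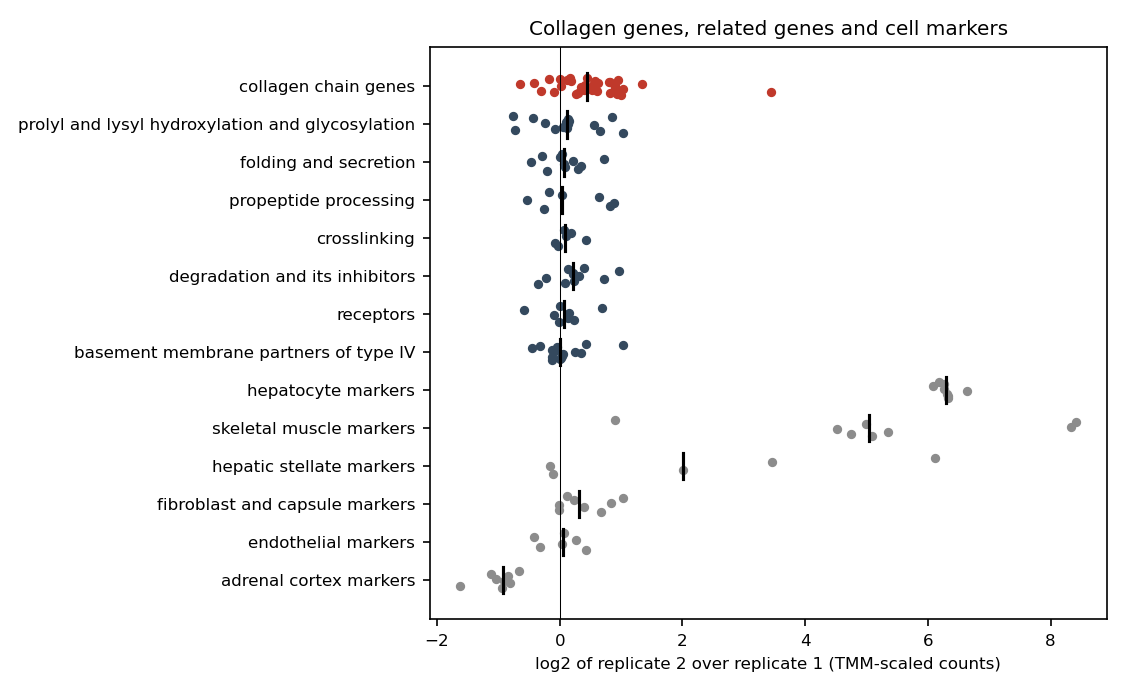
log2 of replicate 2 over replicate 1 (TMM-scaled counts) for each gene whose mean count reached 20, for the collagen genes (red), the biosynthesis and partner lists (dark) and 6 marker lists (grey), with black bars at the medians. The collagen median is 0.44, the medians of the 7 biosynthesis and partner lists lie between 0.01 and 0.21, and the hepatocyte and adrenal cortex markers lie at 6.29 and -0.92.

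Other cell types were measured through their markers, with counts of genes by TMM unless stated. The shares of all genes past 1.5-fold are those given above for each scaling, and these lists are small. Of 6 pericyte and smooth muscle markers 2 were higher (1 by both other scalings) and none lower, with summed levels of 74.9 TPM in replicate 2 against 71.3 TPM in replicate 1, and of 5 Schwann cell markers 3 were higher (2 by both others), with 22.3 TPM in replicate 2 against 15.7 TPM in replicate 1. Of 4 mesothelium markers 3 were higher (2 by both others), with 9.86 TPM in replicate 2 against 7.04 TPM in replicate 1. Adipocyte markers were higher in 5 of 6 genes, and in 0 of 6 by total counts or spike-ins, with 1454 TPM in replicate 2 against 1255 TPM in replicate 1, and macrophage markers in 4 of 5 (3 of 5 by both other scalings), with 28.6 TPM in replicate 2 against 20.5 TPM in replicate 1. Chromaffin markers were lower in 6 of 6, with 722 TPM in replicate 2 against 1573 TPM in replicate 1. Of 8 cartilage, bone and tendon markers 3 were measured, and 1 was higher (Sox9, 1.21) and 1 lower (Scx, -0.60), as by both others. The 8 summed to 5.19 TPM in replicate 2 against 8.88 TPM in replicate 1, of which Scx took 3.76 and 8.18 TPM. Matn1 had 0 counts in replicate 2, and Bglap and Ibsp had 0 in replicate 1. Of 4 keratinocyte markers 2 were measured and 1 was higher, and the 4 summed to 4.45 TPM in replicate 2 against 2.25 TPM in replicate 1. The higher one was Dsp, at 2.45 TPM in replicate 2 against 0.29 TPM in replicate 1, and Krt10 had 35 counts in each. Krt14 had 15 counts in replicate 2 against 4 in replicate 1, and Krt5 had 1 against 3. The part of each of these cell types in the collagen differences was not tested.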

How the data were processed

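Per the file headers, expected counts and TPM per gene and per transcript come from the authors, as does the percent of a gene's TPM that each transcript takes in the first of their deposited transcript tables. A further transcript table gives the authors' estimated counts and TPM, and is called the second here. Per the deposited text, the first kind was made from a transcriptome alignment and the other from reads and an index. Assembly mm10 and GENCODE M21 are named in the text deposited with each sample. Aligner, counter and strand use: not given in the sources used here. Deposited expected counts were rounded to whole numbers and scaled with TMM in edgeR 4.0.16 (R 4.3.3), counting genes whose mean count reached 20. DESeq2 1.42.0 size factors, total counts, ERCC spike-ins, other count minimums, prior counts, TPM ratios, the second table and leaving out each replicate were alternatives. TPM of a gene table is relative to all its entries. Symbols, coordinates (counted from 1) and coding sequences came from GENCODE M21, promoter windows from RefSeq. Protein sequences were not used here; codons stand in for them. Scripts were tested on simulated counts. All collagen genes are described, with values for those at 1 TPM or more in either library, and from each partner list the 2 genes of highest mean TPM and any gene at least 1.5-fold apart. The collagen genes and the lists were chosen with earlier results of these data known. Intervals and floors cover counting error only.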

Additional observations from a re-analysis of the deposited data

How the results depend on the processing

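Of the values recomputed under other settings, DESeq2 size factors, a minimum of 50 counts and a prior count of 5 left the collagen median and the counts past 1.5-fold close to those reported. The median was 0.11 by total counts, 0.17 by spike-ins, 0.47 with no minimum, 0.51 in the second table and 0 as a quotient of TPM with a pseudocount of 0.1 or of 1, where the all-gene median of the TPM ratio was -0.41 at 0.1. Genes at least 1.5-fold higher numbered 6 by total counts, 9 by spike-ins, 2 and 1 as TPM ratios (against 8.32% and 6.7% of all genes), and those lower 3, 2, 3 (pseudocount 0.1) and, with no minimum, 2. Col26a1 reversed as a TPM ratio (-0.49 and -0.29). The 26 collagen genes at 1 TPM or more in both libraries became 32 at a cut of 0.5 TPM and 19 at 2 TPM. They became 29 in the second table and 33 with TPM rescaled over protein-coding genes. The collagen share was 0.752% of expected counts and 0.196% of TPM with mitochondrial genes kept. The mean log2 ratio of Col1a1 to Col1a2 was 0.19 in the second table and 0.54 in counts. That of Col4a1 to Col4a2 was 1.75 in the second table, where the non-coding share was 12.1%. On the log2 scale the fibrillar to type IV ratio differed between libraries by 0.88 in the second table and 0.66 in counts. Over all genes of both classes it differed by 0.55. These alternatives for the fibrillar to type IV ratio were chosen after seeing the data. The cause was not tested. With 2 libraries, leaving out a replicate returns the other's value and tests nothing. No paired analysis was possible because there is 1 group. The 9 genes with a mean count under 20 got no difference.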
